A study of Homo sapiens with 6 samples.

Results

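Imprinted genes are expressed mainly from the copy inherited from one parent, because DNA methylation laid down in the egg or the sperm marks the parental copies differently and is kept through later cell divisions, and the methylated copy is not always the silent one. Many of them act in the placenta and in fetal growth, with paternally expressed genes often promoting growth and maternally expressed genes often limiting it. They lie in clusters in which a methylated control region acts on several neighbours, and in adult epithelium most are expressed at a low level.

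The genes described here are PEG10, SGCE, MEST, PLAGL1, PEG3, NNAT, IGF2R, PHLDA2, GRB10 and H19, which are 10 of the 62754 genes in the deposited table. They were found by gene name, and each name had 1 row. The list was chosen by name around PEG10, with the comparison between the groups already known, and PEG10 itself was selected on its p-value, which ranked 2 among the tested genes. The differences of the listed genes between groups are therefore a description. No p-value is printed for them, and where the fit called one, the call supports nothing.

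RNA was sequenced from HK-2, an immortalized human line derived from proximal tubule epithelium. The cells had received Cisplatin, a platinum drug that crosslinks DNA and injures the tubule, and either NC siRNA (the CP+siNC group) or a NAT10 siRNA (the CP+siNAT10 group), with 3 libraries in each. Both groups share the Cisplatin treatment, and no group without Cisplatin or without siRNA was analysed here. The total counts were 19321665, 21602988 and 19464027 in CP+siNC and 20793709, 21531774 and 25192736 in CP+siNAT10. The labels do not say whether the replicates came from separate cultures, so p-values measure the spread between these libraries, which may be technical.

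The label as proximal tubule cells was compared with marker genes. Of 10 proximal tubule markers, 4 had enough counts to be tested, and GGT1 was the most abundant at 33.2 CPM in CP+siNC, where CPM are counts scaled to a common library size. With NAT10 siRNA it was at 27.4 CPM (lower, adjusted p = 9.92e-05, edgeR). SLC22A6 had no count in any library. LRP2, CUBN, SLC34A1, ANPEP and HNF4A were below the filter on low counts. The highest of their means was 0.363 CPM, for HNF4A in CP+siNAT10, against 0.0835 CPM in CP+siNC. The glucose transporter gene SLC5A2 was present, at 9.30 CPM in CP+siNC and 11.5 CPM in CP+siNAT10 (higher, adjusted p = 0.00363, edgeR), and AQP1 was at 1.03 CPM in CP+siNC. The tubule markers were thus present in part. Epithelial genes were present, with KRT8 at 1455 CPM and PAX8 at 31.4 CPM in CP+siNC, while CDH1 was at 0.0510 CPM. Markers of other cell types were also read. Of 4 leukocyte markers 2 were tested, and their summed level was 209, 198 and 216 CPM in CP+siNC and 288, 265 and 268 CPM in CP+siNAT10. Nearly all of the sum was CD68, a lysosomal protein gene that other cells also express, which was higher with NAT10 siRNA. PTPRC, the general leukocyte marker, was at 0.425, 0.467 and 0.363 CPM in CP+siNC and at 0.475, 1.33 and 0.671 CPM in CP+siNAT10. It reached the filter on low counts through CP+siNAT10, the group where it was higher, so its call supports nothing. Replicate 2 of CP+siNAT10 carries most of that difference, and CD3E and MS4A1 were below the filter. Of 5 fibroblast markers 2 were tested, with sums of 11.2, 12.1 and 10.8 CPM in CP+siNC and 13.6, 16.4 and 13.6 CPM in CP+siNAT10, and COL1A1 was the most abundant. No endothelial marker of 4 was tested. Of 5 trophoblast markers 2 were tested, of which HLA-G was the most abundant and PSG1 was lower at -0.88, and CGA had no count. The summed level was 7.43, 8.78 and 6.65 CPM in CP+siNC and 5.65, 6.63 and 6.35 CPM in CP+siNAT10. The part of these other markers in the results was not tested.

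NAT10, an RNA and protein acetyltransferase and the target of the siRNA, was measured at 75.8, 71.4 and 73.2 CPM in the CP+siNC libraries and at 41.3, 40.5 and 42.4 CPM in the CP+siNAT10 libraries. The groups did not overlap, and the mean with NAT10 siRNA was 56.4% of the control mean. The log2 fold change was -0.82 ± 0.0426 (standard error), with an adjusted p of 2.79e-15 in the edgeR quasi-likelihood test. In these bulk samples fewer cells of a type and less RNA per cell cannot be told apart.

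PEG10 is a paternally expressed gene on chromosome 7 from 94656325 to 94669637 (GRCh38, plus strand, ENSG00000242265). It descends from the gag and pol genes of a retrotransposon and is needed for formation of the placenta in mice. Like a retrovirus, it makes a longer protein when ribosomes slip back by a base on a short heptamer inside the reading frame. The heptamer occurs once in the annotated PEG10 transcripts with a coding sequence, at chr7:94664495-94664531 with its flanks (GENCODE 29, GRCh38, plus strand). It is shown with the heptamer in capitals, and slipping of ribosomes at this site was not measured here.

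PEG10 frameshift site: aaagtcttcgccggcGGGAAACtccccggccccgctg

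In transcript ENST00000482108 the heptamer begins at base 1433, and the stop codon of the first frame follows at base 1455. In 3 other coding transcripts the annotation leaves a gap at this site, and the frame runs on to a stop 1170 bases after the start of the heptamer. Gene counts do not separate the shorter product from the longer one.

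PEG10 had 6110, 6895 and 6148 counts in the CP+siNC libraries and 2594, 2669 and 3118 in the CP+siNAT10 libraries. This is 324, 322 and 319 CPM against 123, 122 and 123 CPM. Every library with NAT10 siRNA was below every control library, and replicates differed little, with an SD of 2.64 CPM in CP+siNC and of 0.583 CPM in CP+siNAT10. The mean with NAT10 siRNA was 38.1% of the control mean, and the log2 fold change was -1.39 ± 0.0327 (standard error), with a 95% interval from -1.46 to -1.32.

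SGCE, which encodes epsilon-sarcoglycan, a membrane protein of the dystrophin-associated complex, is paternally expressed and lies beside PEG10 on the opposite strand, from 94524204 to 94656548. The starts of both genes overlap in the deposited positions. The kit marks strand, but whether strand was used in counting is not given in the sources used here, so reads in the shared stretch could be assigned to either gene. SGCE was measured at 34.3, 34.8 and 37.7 CPM in CP+siNC and at 24.4, 23.9 and 24.7 CPM in CP+siNAT10. The groups did not overlap, and the log2 fold change of -0.55 (standard error 0.0524) was smaller in size than that of PEG10.

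The next tested genes on either side of this pair are CASD1, whose span overlaps that of SGCE, and PPP1R9A, which is maternally expressed in some tissues. CASD1 came out at -0.21 ± 0.104 on the log2 scale (adjusted p = 0.102, edgeR). PPP1R9A came out at 0.21 ± 0.312 (adjusted p = 0.615, edgeR), at a mean of 0.603 CPM in CP+siNC, where the depth leaves a wide interval. Neither passed the test, which does not show that they did not differ. Without CP+siNC replicate 3 or without CP+siNAT10 replicate 3, CASD1 passed, with log2 fold changes of -0.28 and -0.29. Without CP+siNC replicate 1 or without CP+siNAT10 replicate 1 it was closer to 0, at -0.13 and -0.12.

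**Figure D1:**
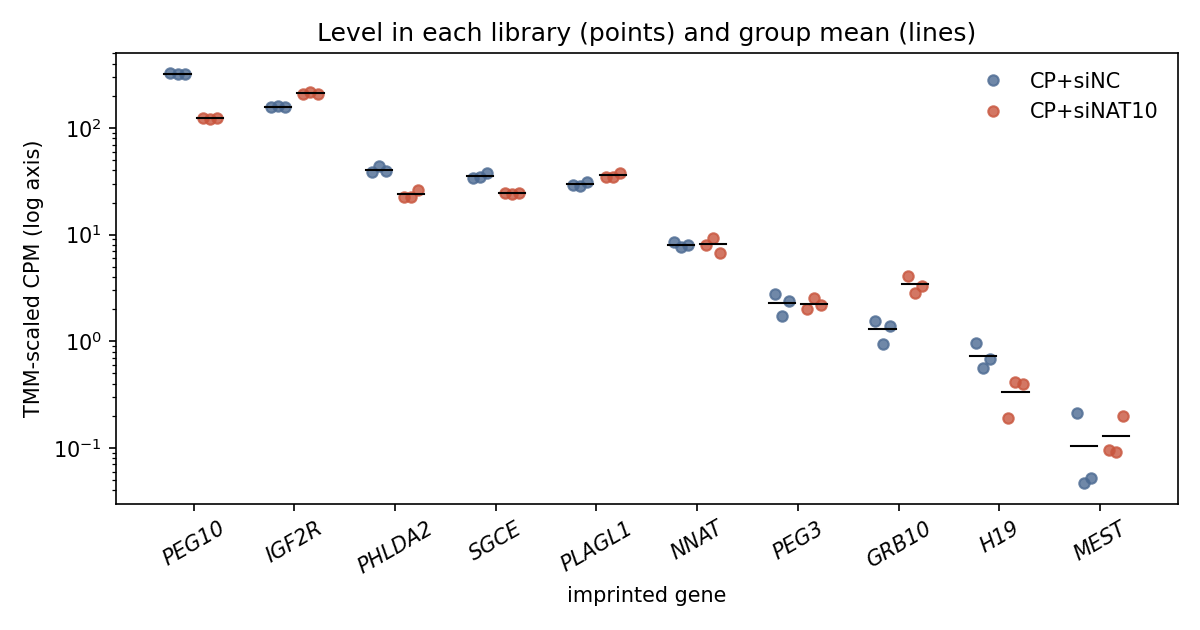
Level of the 10 imprinted genes in each library, in TMM-scaled CPM on a log axis, with points for the 3 libraries of each group and a line for the group mean. PEG10 sits near 322 CPM in CP+siNC and near 123 CPM in CP+siNAT10, while the points of NNAT, PEG3 and MEST overlap between groups.

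Of the other paternally expressed genes, PLAGL1 encodes a zinc finger transcription factor that restrains proliferation. It was at 29.2, 28.8 and 31.4 CPM in CP+siNC and at 35.0, 34.6 and 38.1 CPM in CP+siNAT10. The groups did not overlap, and the log2 fold change was 0.27 ± 0.0531 (standard error). HYMAI, a noncoding transcript inside PLAGL1 on the same strand, was at 1.14 CPM in CP+siNC and 1.28 CPM in CP+siNAT10 and did not pass (adjusted p = 0.634, edgeR).

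PEG3, a zinc finger gene that acts in growth and maternal behaviour in mice, was at 2.76, 1.73 and 2.39 CPM in CP+siNC and at 1.99, 2.56 and 2.17 CPM in CP+siNAT10. NNAT, which encodes a small membrane proteolipid of the endoplasmic reticulum, was at 8.55, 7.61 and 8.05 CPM and at 8.07, 9.38 and 6.79 CPM. For both genes the groups overlapped. Their log2 fold changes were -0.02 and -0.00, with 95% intervals from -0.40 to 0.36 for PEG3 and from -0.22 to 0.21 for NNAT. ZIM2 shares part of its span with PEG3 on the same strand, and NNAT lies within a span of BLCAP on the opposite strand, so reads there could have been shared.

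MEST, which encodes a hydrolase-like protein of mesoderm, had 4, 1 and 1 counts in CP+siNC and 2, 2 and 5 counts in CP+siNAT10. No library reached 10 counts, so MEST is reported as low, and a difference was not detectable at this depth. It was the only low gene of the 10. The end of COPG2 overlaps that of MEST on the opposite strand, so reads there could have been assigned to either gene.

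Among the maternally expressed genes, IGF2R encodes the receptor that carries IGF2 and mannose 6-phosphate proteins to lysosomes, and in people it is imprinted only in some individuals and tissues. It was at 156, 161 and 157 CPM in CP+siNC and at 209, 216 and 207 CPM in CP+siNAT10. The libraries with NAT10 siRNA were all higher, and the log2 fold change was 0.42 ± 0.0333 (standard error).

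PHLDA2, a small protein with a PH domain that limits growth of the placenta, was at 38.6, 44.0 and 39.5 CPM in CP+siNC and at 22.7, 22.7 and 25.96 CPM in CP+siNAT10. The groups did not overlap, and the log2 fold change was -0.77 ± 0.0591 (standard error).

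GRB10 encodes an adaptor that dampens insulin and IGF1 receptor signalling, and it is expressed from the maternal copy in some tissues and the paternal copy in neurons. It had few reads, with 29, 20 and 27 counts in CP+siNC and 87, 62 and 83 counts in CP+siNAT10, which is 1.54, 0.934 and 1.40 CPM against 4.13, 2.84 and 3.27 CPM. All 3 libraries with NAT10 siRNA were above the control libraries. The log2 fold change was 1.41 ± 0.199 (standard error), with a 95% interval from 1.00 to 1.82.

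H19 is a maternally expressed long noncoding RNA that shares a control region with IGF2. Its counts were 18, 12 and 13 in CP+siNC and 4, 9 and 10 in CP+siNAT10. H19 reached the filter on low counts through CP+siNC, the group where it was higher. The groups did not overlap, but the log2 fold change of -1.09 had a standard error of 0.374. Without CP+siNC replicate 1 or CP+siNAT10 replicate 1 it was -0.86 or -0.84, and with DESeq2 -1.12, and in each of these settings H19 was no longer called.

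In all, 9 of the 10 genes had enough counts for the fit. Across the 19874 tested genes, 44.1% had an adjusted p under 0.05, 21.8% being higher and 22.3% lower with NAT10 siRNA, and 2.33% also had a log2 fold change over 1 in size. Of the 9 genes, 3 were higher and 4 lower by the first rule, and 3 passed both limits. The genes were chosen with this comparison known, so nothing is read from these counts. Over the alternatives the log2 fold change of PEG10 lay between -1.40 and -1.35, that of PHLDA2 between -0.84 and -0.71, and that of GRB10 between 1.20 and 1.55.

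Levels of different genes were compared per length, as CPM per kilobase of the deposited gene length (RPKM). That length was 20876 bases for SGCE and 1329 bases for NNAT, and its match to the transcripts in these cells was not tested. By CPM, SGCE at 35.6 stood above NNAT at 8.07 in CP+siNC, so the order below depends on the lengths used. In CP+siNC the order of levels was PEG10 at 48.1 ± 0.394 RPKM (SD, n = 3), PHLDA2 at 44.2 ± 3.16, IGF2R at 6.99 ± 0.115, NNAT at 6.07 ± 0.353, PLAGL1 at 4.65 ± 0.223 and SGCE at 1.71 ± 0.0872. PEG3 at 0.235, H19 at 0.211, GRB10 at 0.132 and MEST at 0.0218 RPKM followed. The libraries of PEG10 and PHLDA2 overlapped in range, as did those of PEG3 and H19, so neither pair can be ordered beyond its spread. PEG10 ranked 1007 by this level among the tested genes. In CP+siNAT10 PHLDA2 came first at 25.9 ± 2.04 RPKM, ahead of PEG10 at 18.4 ± 0.0872 and IGF2R at 9.33 ± 0.198 (SD, n = 3), and NNAT and PLAGL1 overlapped.

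Promoter sequences (250 bases before to 50 after a transcript start, RefSeq, GRCh38.p14) were found for 5 of the 10 genes, namely MEST, PLAGL1, IGF2R, GRB10 and H19, with 17 entries between them. PEG10, SGCE, PEG3, PHLDA2 and NNAT had no entry. The promoters of the genes that were higher with NAT10 siRNA are shown, for PLAGL1 the entry where HYMAI also starts and for GRB10 the outermost entry. They lie at chr6:159968832-159969131 (plus strand), chr6:144008210-144008509 (minus strand) and chr7:50793404-50793703 (minus strand). Capitals mark CACGTG, the E-box, and TGCCGC, the hexamer bound by the imprint keeper ZFP57 when methylated, on either strand.

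IGF2R: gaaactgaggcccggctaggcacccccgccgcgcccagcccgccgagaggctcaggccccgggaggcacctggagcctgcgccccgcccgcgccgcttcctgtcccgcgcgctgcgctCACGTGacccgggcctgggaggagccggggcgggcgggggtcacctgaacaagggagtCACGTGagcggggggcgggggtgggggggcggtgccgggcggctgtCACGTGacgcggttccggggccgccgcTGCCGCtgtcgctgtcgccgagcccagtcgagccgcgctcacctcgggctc

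PLAGL1: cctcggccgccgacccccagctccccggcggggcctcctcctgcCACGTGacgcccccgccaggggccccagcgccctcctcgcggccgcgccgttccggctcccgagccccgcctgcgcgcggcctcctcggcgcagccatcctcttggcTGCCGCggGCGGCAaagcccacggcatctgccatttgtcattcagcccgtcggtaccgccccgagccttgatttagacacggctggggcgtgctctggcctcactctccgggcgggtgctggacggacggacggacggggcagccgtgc

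GRB10: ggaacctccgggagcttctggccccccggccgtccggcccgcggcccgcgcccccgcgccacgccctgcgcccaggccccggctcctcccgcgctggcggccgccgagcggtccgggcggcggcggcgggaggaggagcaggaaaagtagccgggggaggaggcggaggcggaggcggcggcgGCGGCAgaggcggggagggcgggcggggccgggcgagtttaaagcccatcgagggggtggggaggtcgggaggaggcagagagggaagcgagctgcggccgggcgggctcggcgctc

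Among the printed promoters, IGF2R holds CACGTG 3 times, PLAGL1 holds it 1 time and GRB10 does not hold it. Of the 35116 promoter entries, 7.26% hold CACGTG at least once and 0.0940% hold it 3 or more times. TGCCGC occurs 1, 2 and 1 times in the 3 promoters, and 16.7% of the entries hold it. The 3 hold 41, 39 and 44 CpG dinucleotides, against a median of 14 over the entries. The entries not printed differ from these. The other PLAGL1 entries hold neither word and have 31, 3, 3 and 2 CpG, and the other GRB10 entries hold neither and have 49, 24, 3 and 4. MEST, which was low here, holds TGCCGC 1, 1, 0, 2 and 3 times in its 5 entries, with 13 to 25 CpG and no CACGTG. The H19 entry has 6 CpG and neither word. A match is a description of the letters and not a site.

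Other imprinted genes were called in both directions. Of 53 genes from general lists of imprinted loci, 27 were tested, 7 were higher and 9 lower, and 11 did not pass, where 21.8% of all tested genes were higher and 22.3% lower. Their median log2 fold change was 0.0094, beside 0.0070 over all tested genes. Over the alternatives the median took either sign, from -0.03 to 0.06. The number higher fell to 4 without CP+siNC replicate 1 or CP+siNAT10 replicate 2 and to 3 with DESeq2, with 8 lower each time. DESeq2 called fewer genes over the whole table as well, 3221 higher and 3431 lower in place of 4331 and 4440. Of 13 tested paternally expressed genes, 4 were higher and 5 lower. SNHG14, the long host transcript of the Prader-Willi locus, fell from 81.0 ± 2.57 to 47.5 ± 1.39 CPM (SD, n = 3), a log2 fold change of -0.77 (adjusted p = 7.89e-15, edgeR).

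ZDBF2, a zinc finger gene, fell from 74.5 ± 1.51 to 47.9 ± 2.40 CPM (log2 fold change -0.64, adjusted p = 8.82e-13, edgeR). SNRPN and SNURF, which share a transcript with each other at the SNHG14 locus, had log2 fold changes of -0.23 and -0.23. They are counted above as separate lower genes, though their calls could rest on the same reads. L3MBTL1, a chromatin reader, was higher at 0.33. NDN, INPP5F and ZIM2 did not pass, with -0.17, 0.01 and 0.19. NDN passed without CP+siNC replicate 3, and ZIM2 was on the other side of 0 without CP+siNC replicate 1. So was INPP5F without CP+siNC replicate 1, CP+siNC replicate 3 or CP+siNAT10 replicate 3.

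Of 9 tested maternally expressed genes, 2 were higher and 2 lower, where the shares over all tested genes were 21.8% and 22.3%. CPA4, a carboxypeptidase gene near MEST, fell from 47.6 to 32.4 CPM (log2 fold change -0.55, adjusted p = 2.08e-10, edgeR). CDKN1C, a cyclin-dependent kinase inhibitor near PHLDA2, was lower at -0.46. UBE3A, the ubiquitin ligase of Angelman syndrome, rose from 70.7 to 90.5 CPM (0.36, adjusted p = 4.27e-08, edgeR), and ATP10A, its neighbour, was higher at 0.48. TFPI2, at 96.6 CPM in CP+siNC, did not pass with -0.08, nor did ZNF597 with 0.10. Of 5 tested genes with isoform-dependent or tissue-dependent imprinting, COPG2, which overlaps MEST, was higher at 0.77, RB1 and BLCAP were lower at -0.25 and -0.16, and GNAS, at 843 CPM in CP+siNC, did not pass at 0.04, nor NAA60 at -0.00. The groups of BLCAP overlapped, and its call was lost with library size only and without CP+siNC replicate 1, CP+siNAT10 replicate 2 or CP+siNAT10 replicate 3. The call of CDKN1C was lost without CP+siNC replicate 2 and with DESeq2, and that of ATP10A without CP+siNC replicate 1 or CP+siNAT10 replicate 2 and with DESeq2. TFPI2 passed without CP+siNAT10 replicate 3, and GNAS with library size only.

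**Figure D2:**
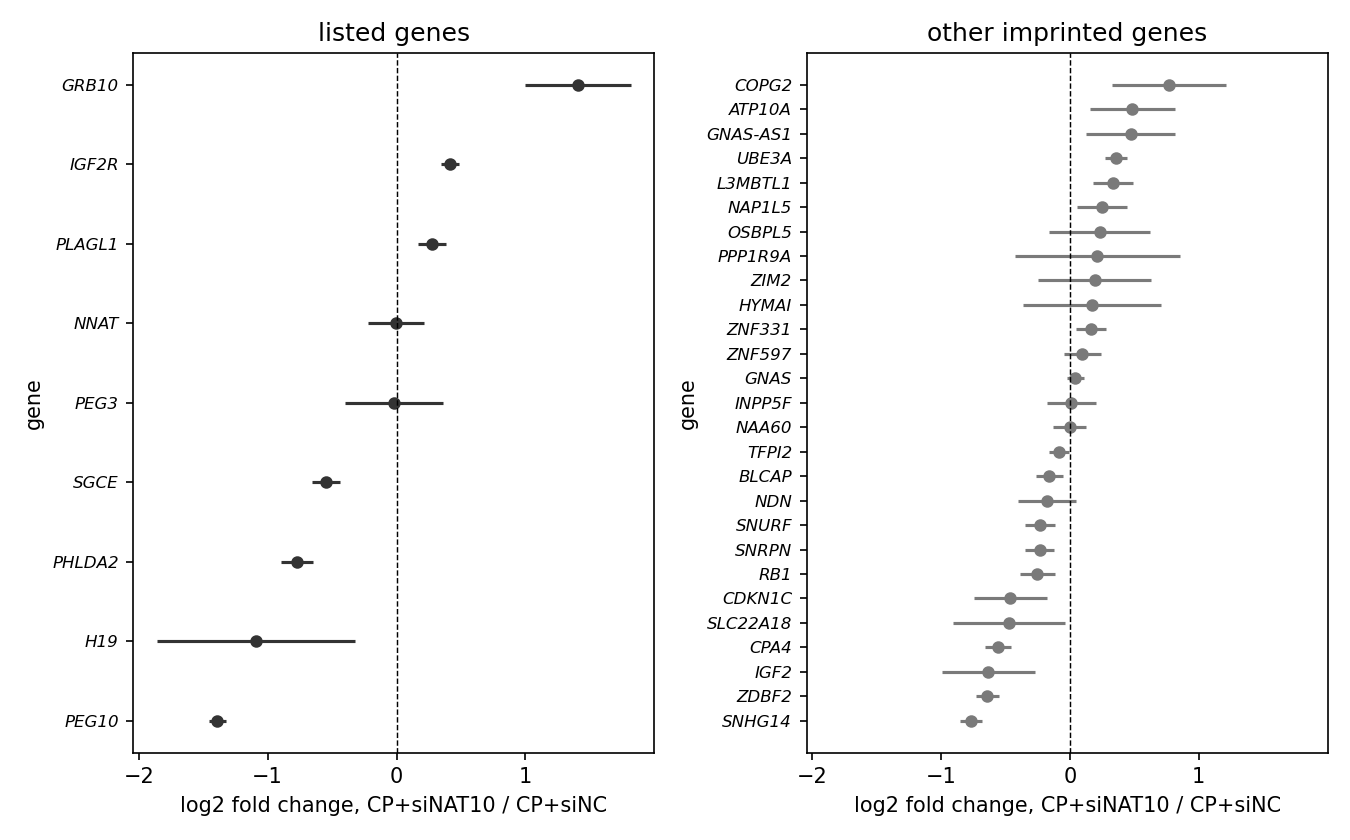
Log2 fold change of CP+siNAT10 against CP+siNC with its 95% interval, for the 9 tested listed genes and for the 27 tested other imprinted genes. The points of both panels lie on either side of 0, from -1.39 for PEG10 to 1.41 for GRB10 in the listed genes.

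The counts of the lists that follow stand beside the same shares over all tested genes, 21.8% higher and 22.3% lower, and the same median of 0.0070. Genes of imprint maintenance and DNA methylation, TET1, TET2 and TET3 among them, had 21 tested of 26. Of these, 9 were higher and 5 lower, with a median of 0.07, between 0.06 and 0.11 over the alternatives. DNMT3B, a de novo DNA methyltransferase, rose from 25.9 ± 1.83 to 39.3 ± 1.64 CPM (SD, n = 3), a log2 fold change of 0.60 (adjusted p = 3.80e-10, edgeR). EHMT1, ATRX, YY1 and ARID4B were higher by 0.40, 0.30, 0.26 and 0.17. The lower genes were UHRF1, HELLS, ARID4A, DAXX and CBX5, at -0.14, -0.17, -0.16, -0.15 and -0.13. TRIM28, CTCF and EHMT2 did not pass, at -0.04, 0.06 and 0.06. With library size only, CTCF and EHMT2 passed. ZFP57, DNMT3L, NLRP5, NLRP7 and KHDC3L were below the filter.

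Other genes derived from retrotransposon gag sequences, as PEG10 is, had 14 tested of 24, with 2 higher and 7 lower (21.8% and 22.3% over all tested genes) and a median of -0.30. The median was -0.06 with no filter on low counts, -0.12 when replicate 1 of CP+siNC was left out and -0.15 when replicate 1 of CP+siNAT10 was. PNMA8A fell from 15.5 ± 0.582 to 5.49 ± 0.249 CPM (SD, n = 3), a log2 fold change of -1.50 (adjusted p = 2.94e-14, edgeR), and ZCCHC12 from 5.70 to 2.29 CPM, at -1.31. PNMA2 and RTL5 were lower at -0.67 and -0.46, and RTL6 was higher at 0.61 (adjusted p = 1.54e-11, edgeR). PNMA1, RTL8A and ZCCHC18 did not pass, at -0.07, 0.20 and -0.15. RTL8A, which passed without CP+siNAT10 replicate 1, has near-identical copies, and its reads may have been split between them. The tested number is small, and nothing particular to this list is read from its median.

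SGCE belongs to a complex of which 10 of 15 listed genes were tested, with 2 higher and 2 lower (21.8% and 22.3% over all tested genes) and a median of 0.18. SGCB, beta-sarcoglycan, fell from 115 ± 1.60 to 52.7 ± 1.65 CPM (SD, n = 3), a log2 fold change of -1.13 (adjusted p = 3.54e-19, edgeR). UTRN, the utrophin gene, and DAG1, dystroglycan, were higher at 0.26 and 0.21, and DTNB was lower at -0.38. The groups of DAG1 overlapped, and its call was lost without CP+siNC replicate 1, CP+siNC replicate 3 or CP+siNAT10 replicate 3 and with DESeq2. That of DTNB was lost without CP+siNC replicate 2, CP+siNC replicate 3 or CP+siNAT10 replicate 1 and with DESeq2. SNTB2, a syntrophin gene, did not pass, at -0.06. The median of this list changed sign to -0.05 with no filter on low counts and to -0.04 without CP+siNAT10 replicate 3. It was 0.08 without CP+siNC replicate 3.

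Around IGF2R and GRB10, 21 of 27 genes of IGF and insulin signalling were tested, with 8 higher and 8 lower (21.8% and 22.3% over all tested genes) and a median of -0.08. The median lay between -0.27 with no filter on low counts and -0.04 with library size only, and 5 were higher without CP+siNAT10 replicate 2 or with DESeq2. IGFBP7, an IGF-binding protein, fell from 43.9 ± 1.62 to 18.1 ± 0.936 CPM (SD, n = 3), a log2 fold change of -1.28 (adjusted p = 3.59e-17, edgeR). IGFBP3 rose by 0.58 and IGFBP6 was lower at -0.45. Of the IGF2 mRNA-binding proteins, IGF2BP2 was higher at 0.45, and IGF2BP1 and IGF2BP3 were lower at -0.30 and -0.51. IGF2, the ligand cleared by IGF2R, was low at 2.81 ± 0.515 CPM in CP+siNC and 1.82 ± 0.0397 CPM in CP+siNAT10 (log2 fold change -0.63, adjusted p = 0.00416, edgeR). M6PR, the other mannose 6-phosphate receptor, and GRB2 and IRS1 did not pass, at 0.03, -0.08 and -0.03.

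Of the paralogs of PHLDA2 and PLAGL1, PHLDA3 was lower at -0.57, PLAGL2 higher at 0.19 and PHLDA1 did not pass, at 0.07, but did with library size only and without CP+siNC replicate 3. Of 5 genes known to act in turnover of the PEG10 protein, 4 were higher, where 21.8% of all tested genes were. The list is short and was chosen with results known, so nothing is read from this count. These were UBE3A, the deubiquitinase gene USP9X at 0.23, and the ubiquilin genes UBQLN4 and UBQLN1 at 0.13 and 0.11. The call of UBQLN4 was lost without CP+siNC replicate 2, and that of UBQLN1 without CP+siNC replicate 1 or CP+siNAT10 replicate 3. UBQLN2 did not pass, at 0.05.

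Within 500 kb of the listed genes, 100 other genes were tested, of which 29 were higher and 16 lower, where 21.8% and 22.3% of all tested genes were. Their median was 0.09, and 0.04 without CP+siNC replicate 1. The listed genes are left out of this count, so SGCE is not among the neighbours of PEG10. Some counted rows overlap each other and could share reads, so the count is of rows and not of independent genes. Among the lower rows these are FUCA2, VDAC1P8 and ENSG00000278206, and IGF2 and ENSG00000284779. Among the higher rows they are those of the repeated names ZNF542P and LPAL2. Beside PHLDA2, the nearest genes are SLC22A18, which did not pass at -0.47 (adjusted p = 0.0750, edgeR), and NAP1L4 on the other side, which rose by 0.20. SLC22A18 passed without CP+siNC replicate 2. SLC22A18AS, further away and overlapping SLC22A18 on the opposite strand, was lower at -1.26 (adjusted p = 0.000375, edgeR), from 1.45 to 0.597 CPM. Beside H19, IGF2 was lower, and MRPL23 had -0.11 and did not pass. Near PEG3, the low gene EDDM13 was higher at 1.65 at the edge of the window, from 0.570 to 1.79 CPM, and ZIM2-AS1 was higher at 0.33. Around NNAT, CTNNBL1 and SRC were higher at 0.38 and 0.14 and BLCAP was lower. The call of SRC was lost without CP+siNC replicate 1, and that of ZIM2-AS1 without CP+siNC replicate 1 or CP+siNAT10 replicate 1. Near PLAGL1, ENSG00000280148 and SF3B5 on its sides were higher at 0.16 and 0.21, and SF3B5 lost its call without CP+siNAT10 replicate 3 and with DESeq2, ENSG00000280148 without CP+siNC replicate 2. Near GRB10, ENSG00000290114 did not pass at 0.01, with -0.16 to 0.44 when single libraries were left out. FIGNL1, the other tested neighbour of GRB10, was lower at -0.10 (adjusted p = 0.0420, edgeR). On the far side of SGCE, ENSG00000236453 was higher at 0.36, a call lost without CP+siNC replicate 1 or CP+siNAT10 replicate 2 and with DESeq2. On the far side of PEG3, ENSG00000268379 did not pass at 0.47. Near MEST, CEP41 was higher at 0.52 and LINC-PINT did not pass at 0.08. Near IGF2R, MRPL18 did not pass at -0.08, and LPAL2, a name carried by overlapping rows with similar counts, was higher at 0.75.

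By the root mean square difference of centred log2 CPM over the 6 libraries, the genes most like PEG10, out of 12303 others averaging 5 CPM or more, were CCND1 at 0.0266, IFIT3 at 0.0379, NEU1 at 0.0418, ZDHHC20 at 0.0448 and HPRT1 at 0.0459. The log2 fold changes were -1.41, -1.34, -1.34, -1.40 and -1.42 in that order. This measure follows the difference between the groups, by which PEG10 was chosen.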

How the data were processed

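The authors trimmed and aligned the reads to GRCh38 and counted them on genes, and the deposited values are raw counts. The submitters' processing notes name Trimmomatic 0.36, STAR 2.5.3a, Subread 1.5.1, featureCounts and edgeR 3.12.1. The annotation, the strand setting and whether reads were merged by the molecular identifiers of the kit are not given in the sources used here.

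Tests used edgeR 4.0.16 under R 4.3.3. Low genes were removed by filterByExpr with a count of 10 and a total of 15 as minimums, leaving 19874 of 62754 genes. The fit used TMM scaling and the quasi-likelihood test, with Benjamini-Hochberg adjustment over all tested genes. With 3 libraries against 3, an exact permutation test cannot go below 0.10, so tests rest on the model across all genes. The fit was run on simulated data with a common spread for all genes, which does not test the calls made here. CPM uses the TMM-scaled library size, and RPKM also the deposited gene length. Spans and neighbours follow the deposited positions. Named genes are the 10 genes, NAT10, in each list up to 5 with the smallest p and up to 3 abundant ones that did not pass, nearest neighbours, neighbours past both limits, and the 5 genes most like PEG10. Some genes that meet this rule are not reported here. The genes and lists were chosen with earlier results of these data known. Markers named for the cell type, overlapping genes, IGF2BP1, FIGNL1 and the lower genes named for imprint maintenance are outside this rule. They were named after their values were seen. Tables and plots used Python 3.11.15 with pandas 2.3.3, numpy 2.4.6 and matplotlib 3.10.9. Alternatives were other scalings, other filters, DESeq2 1.42.0, a replicate block and leaving out each library.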

Additional observations from a re-analysis of the deposited data

How the results depend on the processing

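Over 13 alternatives, the 92 named genes gave no change of direction among those called, and 23 of them crossed the limit of the test at least once. Genes past both limits numbered 464, but 711 without a filter on low counts and 299 with a stricter filter, which test more and fewer genes. Of the sarcoglycan and dystrophin complex genes 4 were called, but 2 with DESeq2, which called 6652 genes in place of 8771 over the whole table, and the cause was not tested. With the replicate number as a block 8526 genes were called, and for the imprinted members 7 as before. Same-numbered libraries of the groups had correlations of deviations of 0.01, 0.065 and -0.205, and not every library correlated best with its own number. Whether the libraries were prepared in pairs cannot be told from these values. Leaving out a library gave 7822 to 8168 called genes, and 6 or 7 of the imprinted genes. H19, with at most 18 counts in a library, was the one that lost its call, and the stricter filter gave no value for it. For H19, GRB10, PEG3 and MEST the depth limits the precision, and the intervals cover counting and replicate spread only.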
